A study of Mus musculus with 5 samples.

Results

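Ventral and dorsal ependymal cells of the adult mouse midbrain were compared as 2 classes of cells within 1 sorted sample. Ependymal cells are the ciliated cells that line the brain's fluid-filled cavities, here the aqueduct of the midbrain. Of the 547 midbrain cells of the Foxj1 line, 317 held at least 1000 CPM of Ccdc153, a gene of motile cilia (CPM, a gene's reads per 1000000 reads in genes). Among these 317, 56 cells had at least 5 reads of Nkx6.1 and 0 reads of Zic4 and are called ventral. Another 79 cells had at least 5 reads of Zic4 and 0 reads of Nkx6.1 and are called dorsal. Together they make 135 of the 1473 cells of the whole series. A further 144 cells had 0 reads of both genes, 38 fell outside these classes for other reasons, and 0 cells reached 5 reads of both.

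The series concerns Sox9 and NFI transcription factors in the maturation of ependymal cells, and holds 5 samples of single cells, 1 per group. Both classes came from the same mice, aged 3 months (5 females and 5 males), of genotype FoxJ1CreERT2 R26TdT, an inducible Cre recombinase driven by the Foxj1 promoter with a tdTomato reporter at Rosa26. Cells were sorted by fluorescence into plates of 96 wells and each was read by Smart-seq2, which covers whole transcripts and carries no molecular identifiers. For comparison, the same line gave samples of the third ventricle, the lateral ventricle and the spinal cord, and Nkx2-2Cre R26TrapC mice (7 females, also 3 months old) gave a further midbrain sample. No animal was tied to a well, and ventral or dorsal is a class defined by 2 genes, not a dissected position.

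In the embryonic neural tube, the floor plate at the ventral midline releases Sonic hedgehog, and the roof plate at the dorsal midline releases BMP and Wnt proteins. Cells read these signals as position and switch on homeobox and zinc finger factors accordingly. Nkx6.1 is such a factor of the ventral tube, and the Zic genes encode zinc finger factors of the dorsal tube. Ependymal cells descend from the radial glia that line that tube.

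The counts that chose the cells are a description only. Nkx6.1 had between 8 and 952 reads in ventral cells, with a median of 112.5. Just outside the limit, 1 cell had 1 read and 1 cell had 2. Zic4 had between 7 and 1432 reads in dorsal cells, with a median of 135, while 34 cells had 1 read and 2 cells had 2. The nearest cells to the Ccdc153 limit had 971 CPM below it and 1022 CPM above it. The 9 ependymal markers other than the Ccdc153 of the rule summed to 13566 CPM in ventral and 12888 CPM in dorsal cells. All 6 markers of oligodendrocyte precursors had 0 reads in ventral cells, and 4 of the 6 had 0 reads in dorsal cells. The 8 neuron markers in the table summed to 19.9 CPM in ventral and 10.1 CPM in dorsal cells, and the 6 microglia markers to 18.9 and 8.08 CPM in ventral and dorsal cells. Astrocyte markers, many of which ependymal cells share, summed to 2610 CPM in ventral and 2942 CPM in dorsal cells. Oligodendrocyte markers summed to 81.6 CPM in ventral and 74.1 CPM in dorsal cells, and choroid plexus markers to 627 and 612 CPM. Markers of mural and smooth muscle cells summed to 130 CPM in ventral and 208 CPM in dorsal cells. The highest cell held 1025 CPM of these in the ventral and 2537 CPM in the dorsal class. Doublets were not searched for with a caller, as sorting aimed at 1 cell in each well, and 0 cells had counts identical to those of another.

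Sequencing depth was close in the classes. The 56 ventral cells held 52264691 reads, with a median of 715014 per cell and 5072.5 detected genes. The 79 dorsal cells held 63997059 reads, with a median of 790218 per cell and 5096 detected genes. Ordered by cell number, taken to follow the order of the wells, the sample fell into 7 blocks of 96 wells, and each block held 5 to 11 ventral and 8 to 13 dorsal cells. Ventral cells made up 13.5 to 24.4% of the Ccdc153-high cells of a block and dorsal cells 15.7 to 30.2%. Cells with Y-linked reads and no Xist numbered 18 of the ventral and 26 of the dorsal cells, and cells with Xist alone 15 and 28, so both sexes were in both classes. With 1 sample there was no replicate error and no test. The ranges over blocks show the spread inside the sample, but the blocks also differed in sex. Among ventral and dorsal cells, blocks 3 and 4 had 0 with Xist and 15 and 12 with Y-linked reads. Blocks 1 and 5 had 14 and 15 with Xist and 2 and 3 with Y-linked reads. Spread over blocks thus cannot be told apart from sex. The intervals, all at 95%, cover counting error only, since reads made by PCR are not independent molecules.

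The promoters of 4 genes on which the comparison turned are shown to set their sequence beside the values that follow: Cd36 and Slc26a3, which were high in ventral cells, and Efhd1 and Pax6, which were high in dorsal cells. Each runs 5′ to 3′ from 250 bases before to 50 bases after a transcript start in RefSeq on GRCm38.p6. Capitals mark matches to 5 motifs searched on both strands: the homeodomain core TAATTA, the GLI motif GACCACCCA, the GC box GGGCGG, the TATA box TATAAA and the CCAAT box.
Cd36: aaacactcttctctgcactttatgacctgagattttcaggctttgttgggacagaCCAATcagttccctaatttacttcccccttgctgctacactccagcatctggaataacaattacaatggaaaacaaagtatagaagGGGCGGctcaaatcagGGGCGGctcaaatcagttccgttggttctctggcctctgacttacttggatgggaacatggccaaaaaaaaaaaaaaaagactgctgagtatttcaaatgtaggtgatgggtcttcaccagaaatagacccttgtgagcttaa
Slc26a3: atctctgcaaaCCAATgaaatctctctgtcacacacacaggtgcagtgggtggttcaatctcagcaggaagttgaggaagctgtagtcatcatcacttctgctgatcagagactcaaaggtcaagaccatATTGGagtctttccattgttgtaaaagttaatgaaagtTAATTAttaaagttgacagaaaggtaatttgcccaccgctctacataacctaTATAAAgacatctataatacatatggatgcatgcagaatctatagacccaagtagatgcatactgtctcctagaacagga
Efhd1: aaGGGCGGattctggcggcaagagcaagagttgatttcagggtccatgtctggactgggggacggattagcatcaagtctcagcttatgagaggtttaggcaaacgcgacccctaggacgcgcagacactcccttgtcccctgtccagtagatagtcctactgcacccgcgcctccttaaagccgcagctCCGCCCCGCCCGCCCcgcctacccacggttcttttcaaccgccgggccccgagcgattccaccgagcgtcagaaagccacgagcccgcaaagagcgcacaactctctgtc
Pax6: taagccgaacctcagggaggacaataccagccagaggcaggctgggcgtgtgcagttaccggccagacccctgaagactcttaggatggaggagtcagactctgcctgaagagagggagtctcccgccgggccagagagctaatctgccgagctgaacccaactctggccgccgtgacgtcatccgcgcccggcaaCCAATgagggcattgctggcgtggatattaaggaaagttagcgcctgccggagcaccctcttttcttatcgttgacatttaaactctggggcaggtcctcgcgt

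The Cd36 promoter (chr5:17835847-17836146, minus strand) and that of Slc26a3 (chr12:31437969-31438268, plus strand) hold few CG pairs, 3 and 1, where the median of 32851 RefSeq promoters is 7. That of Efhd1 (chr1:87264103-87264402, plus strand) holds 24 and that of Pax6 (chr2:105668646-105668945, plus strand) 18. The Cd36 and Slc26a3 starts lie inside the genes as annotated in GENCODE, so they are alternative starts. Slc26a3 carries a homeodomain core at position 169 of its window, counted from the 5′ end, and a TATA box at position 221. The homeodomain core occurs in 5.29% of all promoters and the TATA box in 13.6%. Cd36 carries GC boxes at positions 142 and 158, and Efhd1 carries 4, of which the one at position 196 overlaps those at 191 and 200. The GC box occurs in 35.7% of promoters, the CCAAT box in 37.4% and the GLI motif in 0.253%. The set of RefSeq promoters used here covered 11 of the 15 ventral and 13 of the 15 dorsal named genes of largest fold. Some of these genes have more than 1 promoter, and a gene was counted where any of its promoters matched. The homeodomain core was in 1 ventral and 0 dorsal genes, the GC box in 4 and 5, and the TATA box in 1 and 5. The CCAAT box was in 4 and 6, and the GLI motif in none of the 24 genes. Counted by gene in the same way, the shares over 27025 genes were 6.12% for the homeodomain core and 38.2% for the GC box. They were 15.7% for the TATA box, 41.1% for the CCAAT box and 0.289% for the GLI motif. A match is a run of letters and not a shown binding site.

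Most genes were level between the classes. Among 7351 genes that reached 20 CPM and were read in at least 20% of the cells of the class where they were higher, 67 were at least 4-fold higher in ventral cells, 0.911% of those compared. In dorsal cells 155 were at least 4-fold higher, 2.11%. At 2-fold the shares were 6.23% for ventral and 8.31% for dorsal cells. Of the 67 ventral genes, 65 stayed at 4-fold without the cell with the most reads of the gene in each class, and so did all 155 dorsal genes. The 7 blocks of ventral and dorsal cells did not overlap at all for 7 of the 67 ventral and 44 of the 155 dorsal genes, and over all genes compared for 0.286% in the ventral and 0.775% in the dorsal direction. The 15 genes of largest fold in each direction, among those of the same direction in both sequencing projects, are the named genes, of which 1 dorsal gene is not described. For 3 of the 15 ventral genes, Cd36, Slc26a3 and Ifitm1, the blocks did not overlap. For 13 of the 15 dorsal genes they did not, the others being Pax3 and Uba7.

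Cd36, a scavenger receptor that takes up fatty acids, was the gene of largest fold in ventral cells. It stood at 429.5 CPM in ventral cells (interval 424 to 435) against 0.0156 CPM in dorsal cells, where it had 1 read in all. The ratio is 27488, with a counting interval of 4933 to 1085780. Over the blocks, ventral cells had a lowest, median and highest level of 57.9, 315 and 902 CPM, and dorsal cells 0, 0 and 0.163 CPM. Cd36 reached 10 CPM in 32 of 56 ventral cells (57.1%, interval 43.2 to 70.3) and in 0 of 79 dorsal cells, which by a floor of 3 cells allows a share of up to 3.80%. The gene was thus not detected in most dorsal cells, and it was low in many ventral cells too. Its most strongly read ventral cell held 1648 CPM, so no single cell carried the sum. Cd36 lies on the minus strand of chromosome 5, from 17781690 to 17888801 (GRCm38, as all positions here).

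Ntn1, which encodes netrin-1, the guidance cue that the floor plate sets out for growing axons, was close to 0 in dorsal cells. It stood at 42.1 CPM in ventral cells (40.4 to 43.9) against 0.0156 CPM in dorsal cells, again 1 read, a ratio of 2694 (483 to 106449). Block levels ran from 0 to 81.9 CPM in ventral cells and from 0 to 0.0990 CPM in dorsal cells. It reached 10 CPM in 13 of 56 ventral cells and in 0 of 79 dorsal cells. In the second sequencing project it stood at 3.41 CPM in ventral cells, against 51.5 CPM in ventral cells of the first.

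Transporters of anions and taurine came next. Slc26a3, an exchanger of chloride for bicarbonate, stood at 64.1 CPM in ventral cells (61.9 to 66.3) against 0.234 CPM in dorsal cells, 273-fold higher. Over the blocks it ran from 45.4 to 111 CPM in ventral cells and from 0 to 1.27 CPM in dorsal cells, without overlap, and it reached 10 CPM in 19 ventral cells and 1 dorsal cell. The taurine transporter Slc6a6 stood at 67.3 CPM in ventral and 1.88 CPM in dorsal cells, a log2 ratio of ventral over dorsal of 5.17. The count of cells at 10 CPM was 17 ventral and 1 dorsal, the dorsal one at 104 CPM. Meox1, a homeobox factor best known from the somites of the embryo, stood at 63.9 CPM in ventral and 1.09 CPM in dorsal cells (log2 ratio 5.87), in 12 ventral and 2 dorsal cells at 10 CPM.

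Cnpy1 and Timp4 were spread over more of the ventral cells. Cnpy1, known in zebrafish as a regulator of FGF signalling at the boundary of midbrain and hindbrain, stood at 99.7 CPM in ventral cells (97.0 to 102) and 3.97 CPM in dorsal cells (3.50 to 4.49), 25.1-fold higher. It reached 10 CPM in 31 of 56 ventral cells (55.4%, 41.5 to 68.7) and 6 of 79 dorsal cells (7.59%, 2.84 to 15.8). It was higher in ventral cells in all 7 blocks, at 13.3 to 149 CPM in ventral against 0 to 18.1 CPM in dorsal cells, ranges that overlap. Timp4, an inhibitor of matrix metalloproteinases, stood at 184.5 CPM in ventral and 8.89 CPM in dorsal cells (log2 ratio 4.38), in 31 ventral and 5 dorsal cells. The gene lies within Syn2 on the other strand, and Syn2 itself stood at 6.35 CPM in ventral and 0.828 CPM in dorsal cells. Strand is not kept by this method, so reads of overlapping genes cannot be told apart.

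Several ventral genes have roles at the cell surface or in immune recognition. Ifitm1, an interferon-induced membrane protein, stood at 177 CPM in ventral cells (174 to 181) and 11.6 CPM in dorsal cells (10.8 to 12.5), 15.2-fold higher. Block levels lay at 77.2 to 398 CPM in ventral cells and at 0.0915 to 36.3 CPM in dorsal cells, without overlap. Gpld1, a phospholipase that releases lipid-anchored proteins, stood at 271 CPM in ventral and 29.8 CPM in dorsal cells (9.09-fold) and was the most widespread, at 10 CPM in 40 of 56 ventral and 16 of 79 dorsal cells. Ly86, a partner of a Toll-like receptor homologue, stood at 31.1 CPM in ventral and 2.11 CPM in dorsal cells. H2.Ab1, a chain of MHC class II, stood at 34.5 CPM in ventral and 3.20 CPM in dorsal cells. The 6 microglia markers, which summed to 18.9 CPM in ventral and 8.08 CPM in dorsal cells, had 4 members at 0 reads in ventral and 3 in dorsal cells, Cx3cr1, C1qa and C1qb in both. The highest cell held 269.6 CPM of them in the ventral and 255 CPM in the dorsal class, and their part in Ly86 and H2.Ab1 was not tested.

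The remaining ventral genes of the 15 were lower or rested on fewer cells. Cyfip2, a subunit of the WAVE actin complex, stood at 53.4 CPM in ventral and 3.08 CPM in dorsal cells. Prkar2b, a regulatory subunit of protein kinase A, stood at 55.3 CPM in ventral and 4.39 CPM in dorsal cells. Nkd2, an inhibitor of Wnt signalling, stood at 37.3 CPM in ventral and 4.05 CPM in dorsal cells, and in dorsal cells 1 of 79 reached 10 CPM. Rbfox1, a splicing factor, stood at 21.2 CPM in ventral and 2.25 CPM in dorsal cells, and was higher in ventral cells in every block. For these 4 genes the log2 ratios of ventral over dorsal ran from 3.20 to 4.12.

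Beyond the 15, 4 ventral genes were singled out after their values were seen, because their blocks did not overlap. Gsn, which encodes the actin-severing protein gelsolin, stood at 1265 CPM in ventral cells and 209 CPM in dorsal cells, a log2 ratio of 2.60. Its blocks ran from 515 to 1845 CPM in ventral cells and from 127 to 297 CPM in dorsal cells, and it reached 10 CPM in 50 of 56 ventral and 36 of 79 dorsal cells. The urea transporter Slc14a1 stood at 274 CPM in ventral and 60.4 CPM in dorsal cells. Sfrp1, a secreted antagonist of Wnt, stood at 60.5 CPM in ventral and 10.6 CPM in dorsal cells, and Glipr2 at 68.5 CPM in ventral and 14.3 CPM in dorsal cells.

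**Figure D1:**
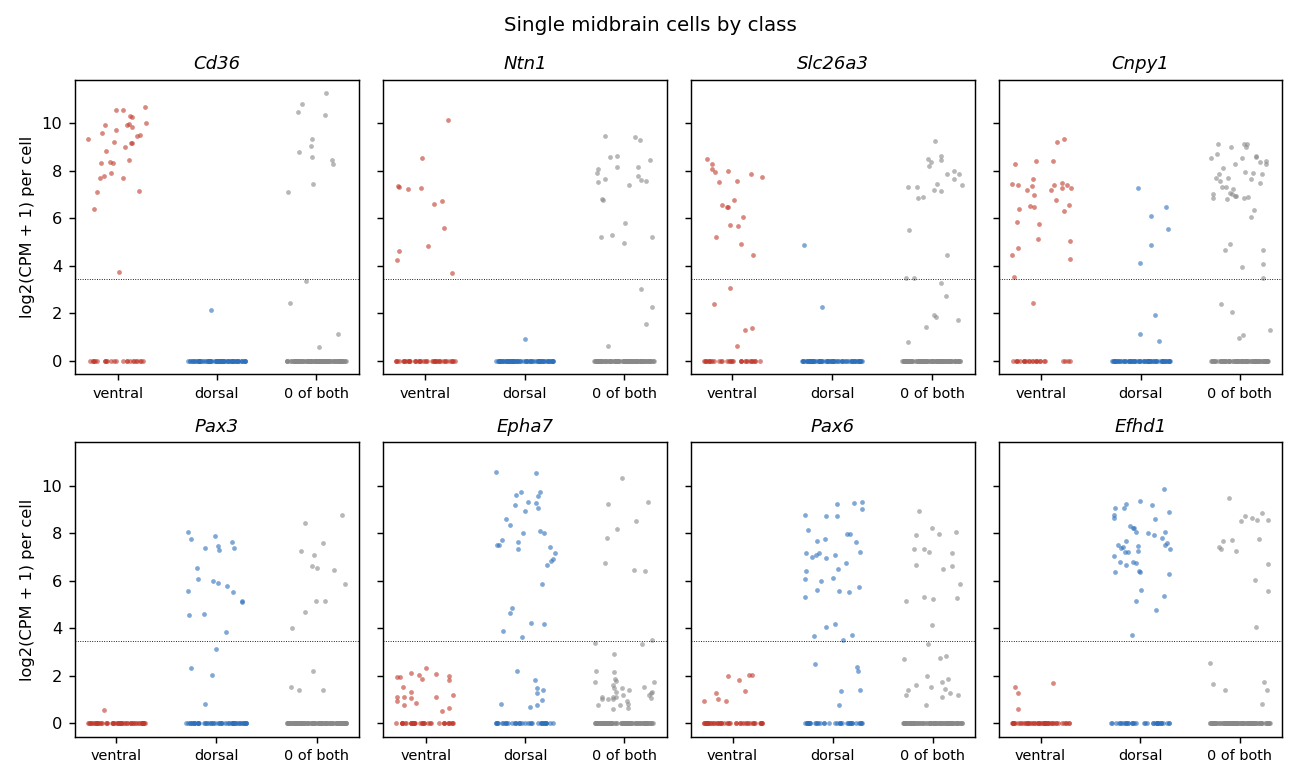
Level of 8 genes in every midbrain cell of 3 classes, as log2(CPM + 1) on the vertical axis; each point is 1 cell, and the columns hold 56 ventral, 79 dorsal and 144 cells with 0 reads of both genes of the rule. The dotted line marks 10 CPM. Cd36 and Ntn1 lie above the line in 32 and 13 ventral cells and in 0 dorsal cells, whereas Efhd1, Pax6, Epha7 and Pax3 lie above it in 0 ventral cells.

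Efhd1 had the largest fold in dorsal cells when a class at 0 reads took the floor of 3 reads. Genes with 0 reads in ventral cells, such as Larp1b below, cannot be ranked against it. It encodes a calcium-binding protein of mitochondria. It stood at 0.0765 CPM in ventral cells, 4 reads in all, against 132 CPM in dorsal cells (129 to 135), 1724-fold higher in dorsal cells (673 to 6330). The blocks ran from 0 to 0.172 CPM in ventral cells and from 65.3 to 260 CPM in dorsal cells, far from overlapping. Efhd1 reached 10 CPM in 0 of 56 ventral cells, which by a floor of 3 cells allows up to 5.36%, and in 43 of 79 dorsal cells (54.4%, 42.8 to 65.7). The gene lies on the plus strand of chromosome 1, from 87264363 to 87310839.

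The paired-box factors Pax3 and Pax6 were higher in dorsal cells. Pax3, a paired-box factor of the dorsal tube, had 1 read in ventral cells (0.0191 CPM) and stood at 30.9 CPM in dorsal cells, a ratio of 1615 (289 to 63804). It reached 10 CPM in 0 ventral and 20 dorsal cells, and its dorsal blocks ran from 0 to 65.9 CPM. Pax6, a paired-box factor of eye and forebrain development, stood at 0.249 CPM in ventral cells and 82.7 CPM in dorsal cells (log2 ratio -8.38). It reached 10 CPM in 0 ventral and 36 dorsal cells, and its blocks ran from 0 to 0.517 CPM in ventral cells and from 21.4 to 137 CPM in dorsal cells.

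Zic5 and Zic1 had the direction of the Zic4 used by the rule. Zic5 stood at 5.09 CPM in ventral and 22.7 CPM in dorsal cells. Zic1 had 1 read in ventral cells and stood at 23.7 CPM in dorsal cells, but its annotated span overlaps that of Zic4 on the opposite strand of chromosome 9. Its value is not independent of the rule. Mab21l2, which is needed for the eye and the roof of the midbrain, had 1 read in ventral cells and stood at 30.8 CPM in dorsal cells, in 18 cells. It lies inside Lrba on the other strand, and Lrba stood at 3.08 CPM in ventral and 20.8 CPM in dorsal cells.

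Msx1, a homeobox target of BMP signals, differed in degree. It stood at 134 CPM in ventral cells and 468 CPM in dorsal cells (log2 ratio -1.81). It reached 10 CPM in 37 of 56 ventral and 76 of 79 dorsal cells, and its blocks ran from 52.4 to 247 CPM in ventral cells and from 305 to 709 CPM in dorsal cells.

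Of the list of 26 dorsal patterning and roof plate genes, 18 were in the table and 9 reached 20 CPM in either class. Of these 9, 8 were at least 4-fold higher in dorsal cells, 1 was 2- to 4-fold higher in dorsal cells and 0 were higher in ventral cells. Without Zic1, whose reads are not independent of the rule, 7 of 8 were at least 4-fold higher in dorsal cells, with a median log2 ratio of -3.19. All but Msx1 reached 20 CPM in dorsal cells alone and so had to be higher there. Over all 8066 genes at that level, with no minimum share of cells, 1.46% were at least 4-fold higher in ventral and 2.63% in dorsal cells. A further 6.21% were 2- to 4-fold higher in ventral and 6.52% in dorsal cells, and 83.2% lay within 2-fold. The counts of every list are to be read beside these shares. In every list, a member that reached 20 CPM in 1 class alone had to be higher in that class. The list's median log2 ratio of ventral over dorsal was -3.22, and that of all genes -0.03. Among the ligands of this list, Bmp6 stood at 4.53 CPM in ventral and 40.9 CPM in dorsal cells. The Wnt ligand Wnt3 stood at 2.37 CPM in ventral and 22.0 CPM in dorsal cells, and Rspo3, which strengthens Wnt signals, at 4.50 and 22.0 CPM in ventral and dorsal cells. Gdf10, a BMP relative, had 0 reads in ventral cells and 15.7 CPM in dorsal cells, under the 20 CPM limit.

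**Figure D2:**
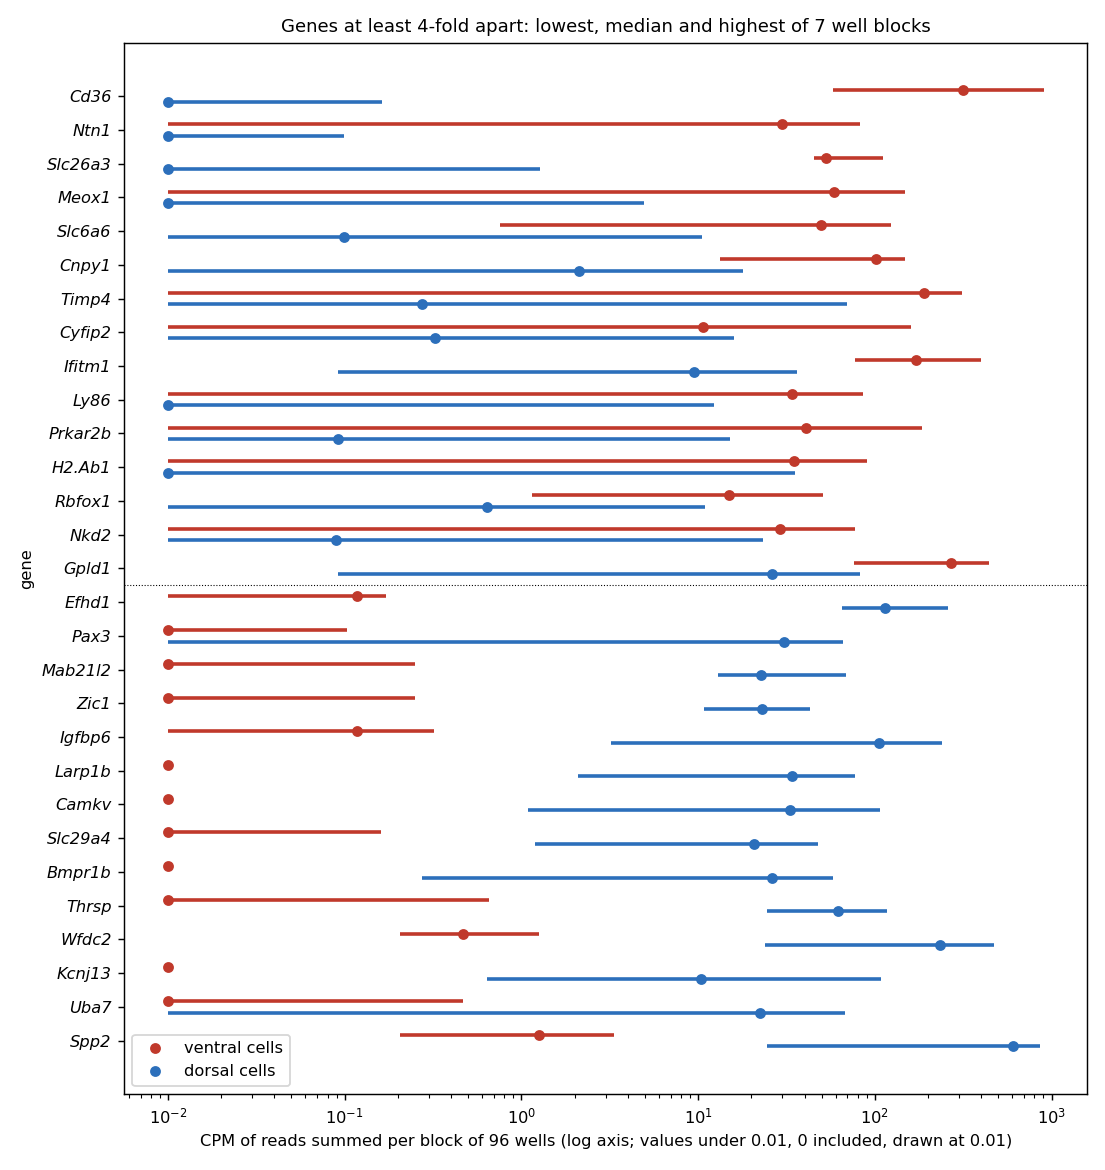
Level of the 15 ventral and 14 of the 15 dorsal genes of largest fold, with 1 row per gene; the point is the median and the line runs from the lowest to the highest of 7 blocks of 96 wells, on a log axis of CPM where values under 0.01 are drawn at 0.01. Red stands for ventral and blue for dorsal cells. The lines do not overlap for 3 of the 15 ventral genes and for 12 of the 14 dorsal genes drawn.

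Some dorsal genes of smaller fold were read in most dorsal cells. Pla2g7, which breaks down platelet-activating factor, and Pamr1 were singled out after their values were seen. Pla2g7 was at 169 CPM in ventral and 969 CPM in dorsal cells (log2 ratio -2.52), in 24 of 56 ventral and 77 of 79 dorsal cells at 10 CPM. Over the blocks it ran from 25.0 to 297 CPM in ventral cells and from 541 to 1318 CPM in dorsal cells. Pamr1 was at 66.5 CPM in ventral and 346 CPM in dorsal cells, in 18 ventral and 59 dorsal cells.

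The remaining dorsal genes of the 15 were of mixed function. Larp1b, an RNA-binding protein, had 0 reads in ventral cells and stood at 45.1 CPM in dorsal cells, 785-fold higher at the floor. Camkv, a kinase-like protein of vesicles, had 0 reads in ventral cells and stood at 40.3 CPM in dorsal cells, 702-fold higher at the floor. Bmpr1b, a type I receptor for BMPs, had 0 reads in ventral cells and stood at 26.2 CPM in dorsal cells, 457-fold higher at the floor. Kcnj13, a potassium channel, had 0 reads in ventral cells and stood at 24.6 CPM in dorsal cells, 428-fold higher at the floor. Kcnj13 lies within Gigyf2 on the other strand. Bmpr1b stood at 7.88 CPM in dorsal cells outside the Sspo-high subset described below, and in the second sequencing project at 0.429 CPM, where its log2 ratio was -0.55. Kcnj13 stood at 9.70 CPM in dorsal cells outside that subset. These ratios rest on a floor of 3 reads over the ventral cells, and none of the 4 genes was read in any of the 56 cells. Their counting intervals reached down to 638-fold for Larp1b, 570-fold for Camkv, 371-fold for Bmpr1b and 348-fold for Kcnj13. Larp1b reached 10 CPM in 23 dorsal cells, Camkv in 16, Kcnj13 in 14 and Bmpr1b in 13.

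Uba7, which activates the ubiquitin-like protein ISG15, stood at 0.0765 CPM in ventral and 28.8 CPM in dorsal cells, in 16 dorsal cells at 10 CPM. It overlaps the annotated gene Gm20661 on the same strand, which stood at 31.0 CPM in ventral and 38.7 CPM in dorsal cells. Thrsp, a regulator of lipid synthesis, stood at 0.153 CPM in ventral and 69.8 CPM in dorsal cells. Outside the Sspo-high subset Thrsp stood at 17.6 CPM and Mab21l2 at 15.4 CPM, against 391.6 and 126 CPM inside it. The remaining 4, Igfbp6, Slc29a4, Wfdc2 and Spp2, are given with that subset.

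That subset was 13 dorsal cells with at least 1000 CPM of Sspo, the gene of SCO-spondin. This giant glycoprotein is the hallmark of the subcommissural organ, a gland at the roof of the aqueduct's entrance that secretes it into the cerebrospinal fluid. The 13 make up 16.5% of dorsal cells (9.06 to 26.5), against 0 of 56 ventral cells, which by a floor of 3 cells allows up to 5.36%. Sspo stood at 27.3 CPM in ventral cells and 1639 CPM in all dorsal cells, but at 22.6 CPM in the 66 dorsal cells outside the subset. The 5 subcommissural organ markers in the table summed to 58.0 CPM in ventral cells, 2300 CPM in dorsal cells and 58.3 CPM in dorsal cells outside the subset. The median cell held 3.31 CPM of Sspo in the ventral and 3.28 CPM in the dorsal class.

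Igfbp6, which binds insulin-like growth factors, stood at 0.134 CPM in ventral and 122 CPM in all dorsal cells, with 859 CPM in the 13 Sspo-high cells and 2.05 CPM in the other 66. Wfdc2, a secreted protease inhibitor, stood at 0.555 CPM in ventral and 239 CPM in dorsal cells, with 1659 CPM inside the subset and 8.23 CPM outside. Spp2, a secreted phosphoprotein, stood at 1.26 CPM in ventral and 459 CPM in dorsal cells, with 3205 CPM inside and 14.2 CPM outside. Slc29a4, a transporter of monoamines, stood at 0.0383 CPM in ventral and 20.4 CPM in dorsal cells, with 144 CPM inside and 0.345 CPM outside. Without the subset the log2 ratios of these 4 genes were -3.94, -3.89, -3.49 and -3.17. With the limit lowered to 100 CPM of Sspo, chosen after the data were seen, the ratio of Wfdc2 reversed to 0.71, and those of Igfbp6 and Spp2 were -1.10 and -0.32.

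The receptors Drd1 and Npsr1 had the same pattern. Drd1, a dopamine receptor, stood at 0.0957 CPM in ventral and 35.3 CPM in dorsal cells, with 251 CPM inside the subset and 0.327 CPM outside. Npsr1, the receptor for neuropeptide S, stood at 0.287 CPM in ventral and 80.0 CPM in dorsal cells, with 567 CPM inside and 0.981 CPM outside. Spdef, a factor of secretory cells, stood at 5.30 CPM in ventral and 260 CPM in dorsal cells, with 7.99 CPM outside.

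Efhd1 stood at 232.5 CPM inside the subset and 116 CPM outside, Pax3 at 46.2 and 28.4 CPM, and Pax6 at 263 and 53.6 CPM. Outside it, their log2 ratios of ventral over dorsal were -10.56, -10.54 and -7.75. Of all 155 dorsal genes, 113 stayed at least 4-fold higher in dorsal cells without the subset, 41 were under 4-fold, and 1, Pnmal1, was over 4-fold in the other direction (log2 4.18). In all, 8 of the 155 were then higher in ventral cells, among them Sspo itself (log2 0.27) and the retinol carrier Rbp4 (1.46).

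**Figure D3:**
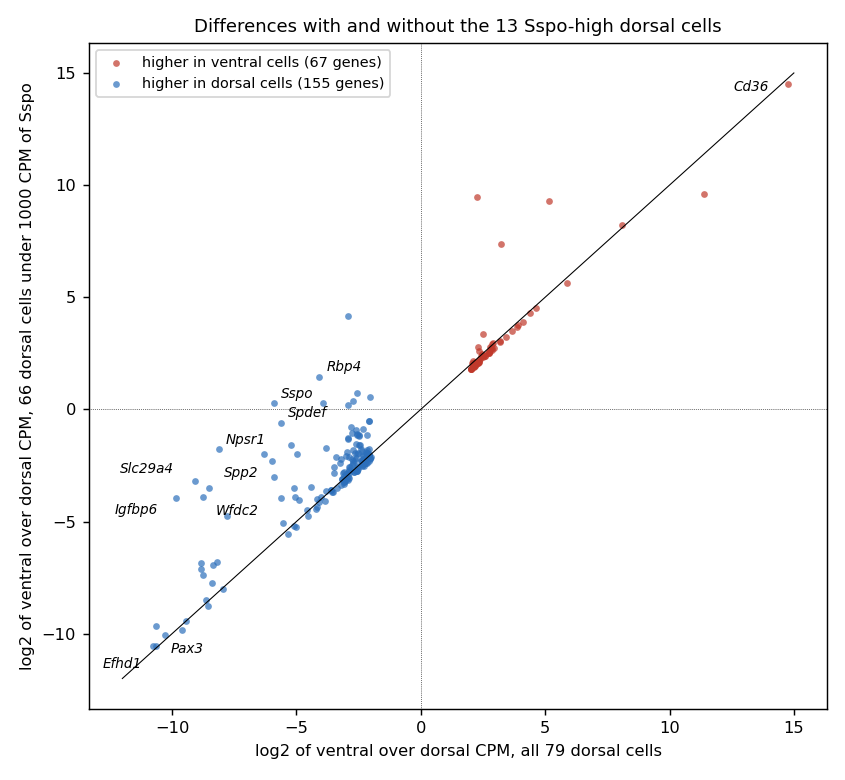
Log2 of ventral over dorsal CPM with all 79 dorsal cells (horizontal axis) and with the 66 dorsal cells under 1000 CPM of Sspo (vertical axis); each point is 1 of the 67 ventral (red) or 155 dorsal (blue) genes, values against 0 reads use a floor of 3 reads, and the line marks equal values. Pax3 and Efhd1 lie on the line, whereas Igfbp6, Wfdc2, Spp2 and Slc29a4 lie above it, between -3.94 and -3.17 on the vertical axis.

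Transcription factors of the ventral tube were read in few cells of either class. Of 26 genes of ventral patterning and hedgehog response, 21 were in the table and 6 reached 20 CPM. Of these, 2 were at least 4-fold higher in ventral cells, 4 lay within 2-fold and 0 were 2-fold or more higher in dorsal cells. The median log2 ratio was 0.56. The 2, Dbx2 and Ptch1, reached 20 CPM in ventral cells alone and so had to be higher there. Dbx2, a homeobox factor of the middle of the tube, stood at 37.0 CPM in ventral cells and had 1 read in dorsal cells, in 11 ventral cells at 10 CPM. Ptch1, the hedgehog receptor and itself a hedgehog target, stood at 22.0 CPM in ventral and 0.688 CPM in dorsal cells, in 10 ventral cells and 1 dorsal cell. Boc, a co-receptor for hedgehog, stood at 111 CPM in ventral and 63.7 CPM in dorsal cells, and Smo, the signal transducer, at 40.6 and 42.3 CPM in ventral and dorsal cells.

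Some ventral factors lay under the 20 CPM limit. Nkx2.2, a factor of the tube next to the floor plate, stood at 11.5 CPM in ventral cells and had 0 reads in dorsal cells. It reached 10 CPM in 6 of 56 ventral cells. Foxa1, a factor of floor plate and dopamine progenitors, stood at 16.0 CPM in ventral and 0.344 CPM in dorsal cells, in 9 ventral cells and 1 dorsal cell. Nkx6.2 stood at 6.08 CPM in ventral cells and had 0 reads in dorsal cells. Olig2 had 0 reads in both classes.

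Of 20 floor plate genes, 16 were in the table and 10 reached 20 CPM, and they were split between the classes. Higher by at least 4-fold in ventral cells were 2, Ntn1 and Pdyn, and 3 were at least 4-fold higher in dorsal cells. Pdyn, which encodes prodynorphin, stood at 34.4 CPM in ventral and 0.688 CPM in dorsal cells, but this rested on 3 ventral cells and its direction was the opposite in the second sequencing project (log2 -2.84). Wnt5a, a Wnt ligand of the ventral midbrain, stood at 89.9 CPM in ventral and 26.3 CPM in dorsal cells (log2 ratio 1.77), in 27 ventral and 21 dorsal cells. Sulf2, which trims sulphates from heparan chains, stood at 157 CPM in ventral and 51.2 CPM in dorsal cells. On the other side, Slit2, a repellent of axons, stood at 11.7 CPM in ventral and 71.9 CPM in dorsal cells, and Ferd3l, a floor plate factor, at 0.344 and 27.3 CPM in ventral and dorsal cells. Ferd3l stood at 1.38 CPM in dorsal cells outside the Sspo-high subset.

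Of 10 factors of the midbrain and its border with the hindbrain in the table, 6 reached 20 CPM. Within 2-fold were 4 of the 6, where 83.2% of all genes were. Otx2, a homeobox factor of the anterior brain, was read at 87.4 CPM in ventral and 171 CPM in dorsal cells, and Otx1 at 52.2 and 96.7 CPM in ventral and dorsal cells. Meis2 stood at 37.8 CPM in ventral and 12.5 CPM in dorsal cells (log2 ratio 1.60). En1, a factor of midbrain and isthmus, lay under the limit, at 17.3 CPM in ventral and 0.141 CPM in dorsal cells, in 9 ventral and 0 dorsal cells at 10 CPM.

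Of 20 BMP pathway genes in the table, 11 reached 20 CPM. Of these, 4 were at least 4-fold and 2 were 2- to 4-fold higher in dorsal cells, and 1 was 2- to 4-fold higher in ventral cells. The 4, Bambi, Id1, Bmp6 and Bmpr1b, reached 20 CPM in dorsal cells alone and so had to be higher there. The median log2 ratio was -1.12, and -0.42 without the Sspo-high cells. Bambi, a decoy receptor, stood at 8.74 CPM in ventral and 142 CPM in dorsal cells (log2 ratio -4.02). Its blocks ran from 0 to 24.7 CPM in ventral cells and from 74.3 to 199 CPM in dorsal cells, and it stood at 132 CPM in dorsal cells outside the subset. Id1, a target of BMP signals, stood at 2.43 CPM in ventral and 146 CPM in dorsal cells, but at 19.9 CPM outside the subset.

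In the Wnt pathway, 10 of 28 genes in the table reached 20 CPM. Of these, 1 was at least 4-fold higher in ventral and 3 in dorsal cells. Dkk3, a secreted protein of the Dickkopf family, stood at 65.4 CPM in ventral and 527 CPM in dorsal cells (log2 ratio -3.01), in 12 of 56 ventral and 64 of 79 dorsal cells at 10 CPM. Its blocks ran from 0 to 144 CPM in ventral cells and from 238 to 738 CPM in dorsal cells. Nkd1, a feedback inhibitor and target of Wnt, stood at 7.06 CPM in ventral and 60.5 CPM in dorsal cells, whereas its relative Nkd2, above, had the opposite direction. Axin2, a general Wnt target, stood at 18.8 CPM in ventral and 58.5 CPM in dorsal cells. The antagonist Sfrp1 was the ventral member at 4-fold, and Wnt5a, given above, was 2- to 4-fold higher in ventral cells.

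Axon guidance genes were split as well. Of 9 at 20 CPM among 38 in the table, 2 were at least 4-fold higher in ventral and 4 in dorsal cells. Epha7, a receptor for ephrins, stood at 0.555 CPM in ventral and 160 CPM in dorsal cells (log2 ratio -8.17), with blocks of 0.251 to 0.862 CPM in ventral and 58.7 to 268 CPM in dorsal cells. It stood at 63.0 CPM in dorsal cells outside the Sspo-high subset. Its ligand family had Efna1 at 0.995 CPM in ventral and 37.0 CPM in dorsal cells. Unc5c, a receptor for netrin, stood at 1.09 CPM in ventral and 32.1 CPM in dorsal cells, so that netrin-1 and this receptor were higher in opposite classes. An antisense gene at Unc5c, Gm15689, stood at 10.6 CPM in ventral and 62.2 CPM in dorsal cells, and the reads of the pair cannot be told apart.

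Retinoid genes had a median log2 ratio of -1.22, and -0.44 without the Sspo-high cells. With all cells, 0 of the 7 at 20 CPM were higher in ventral cells, and without those cells Rbp4 turned to 1.46. Aldh1a1, which makes retinoic acid, stood at 0.249 CPM in ventral and 61.6 CPM in dorsal cells (log2 ratio -7.95), with 64.4 CPM outside the Sspo-high subset. Ttr, a carrier of thyroid hormone and retinol made by the choroid plexus, stood at 14.3 CPM in ventral and 97.4 CPM in dorsal cells, and at 29.6 CPM outside the subset.

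Among transporters, 17 of 27 reached 20 CPM, of which 10 lay within 2-fold, 2 were 2- to 4-fold higher in ventral and 5 at least 4-fold higher in dorsal cells. Slc1a2, the main glutamate transporter of astrocytes, stood at 21.2 CPM in ventral and 89.9 CPM in dorsal cells. The potassium channel Kcnj16 was higher in ventral cells, at 211 CPM in ventral and 73.9 CPM in dorsal cells. Aqp4, the water channel, lay within 2-fold, at 338 CPM in ventral and 467 CPM in dorsal cells.

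Of 9 receptors for peptides, hormones and transmitters at 20 CPM, 6 lay within 2-fold. Lpar1, a receptor for lysophosphatidic acid, stood at 350.2 CPM in ventral and 95.2 CPM in dorsal cells (log2 ratio 1.88). Its blocks ran from 243 to 506 CPM in ventral cells and from 42.6 to 165 CPM in dorsal cells. Of 13 adhesion and junction genes at 20 CPM, 2 were 2- to 4-fold higher in ventral cells and 4 at least 4-fold higher in dorsal cells. Cldn3, a tight junction claudin, was among them, at 0.115 CPM in ventral and 27.05 CPM in dorsal cells, but at 1.04 CPM outside the Sspo-high subset. Gja1, the main gap junction protein of glia, stood at 806 CPM in ventral and 451 CPM in dorsal cells.

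Interferon and MHC genes had a median log2 ratio of 0.46. Of 13 at 20 CPM, 1 was at least 4-fold and 3 were 2- to 4-fold higher in ventral cells, and 9 lay within 2-fold. Beside Ifitm1, its neighbour Ifitm3 stood at 835 CPM in ventral and 395 CPM in dorsal cells, and H2.T23, an MHC class I molecule, at 72.2 and 20.7 CPM in ventral and dorsal cells.

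**Figure D4:**
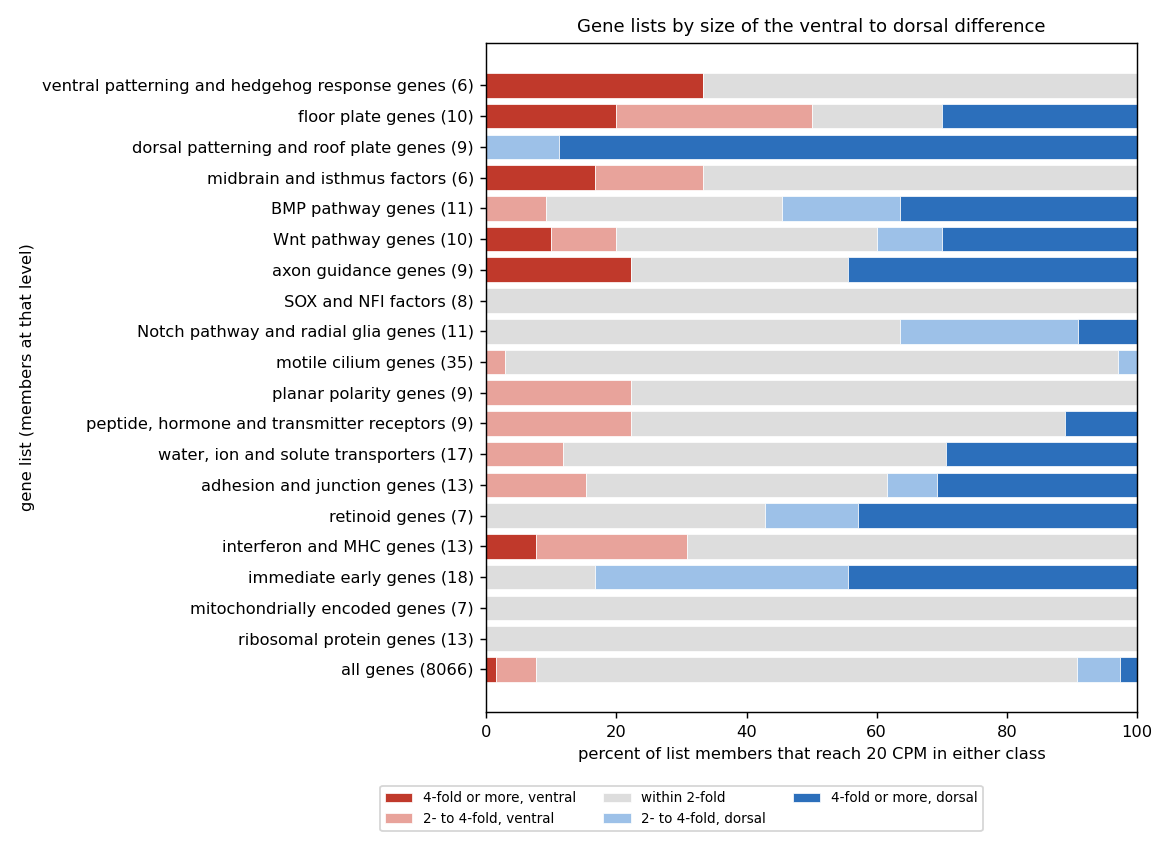
Shares of each gene list by the size of the ventral to dorsal difference, in percent of the list's members that reached 20 CPM in either class (their number is in brackets). Red stands for higher in ventral cells, blue for higher in dorsal cells and grey for within 2-fold. Of the 9 dorsal patterning and roof plate genes, 8 were at least 4-fold higher in dorsal cells, and of 35 motile cilium genes 33 lay within 2-fold.

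Of 35 motile cilium genes at 20 CPM, 33 lay within 2-fold, where 83.2% of all genes did, and their median log2 ratio was 0.16, with -0.09 to 0.35 over the blocks. Foxj1, the master factor of motile cilia and the driver of the Cre, stood at 664 CPM in ventral and 554 CPM in dorsal cells. Outside 2-fold were Trp73, a factor of multiciliated cells, at 167 CPM in ventral and 83.0 CPM in dorsal cells, and the tektin Tekt2 at 22.3 and 49.99 CPM in ventral and dorsal cells. Of 9 planar polarity genes, which orient the cilia, 7 lay within 2-fold, with Ankrd6 (212 CPM in ventral and 102 CPM in dorsal cells) and Fat4 (28.2 and 12.8 CPM) on the ventral side. All 7 mitochondrially encoded and all 13 ribosomal protein genes at that level lay within 2-fold.

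Among the factors that the series concerns, all 8 SOX and NFI genes at 20 CPM lay within 2-fold, close to the 83.2% of all genes, with a median log2 ratio of 0.10. Sox9 stood at 1067 CPM in ventral and 1359 CPM in dorsal cells and reached 10 CPM in all 56 ventral and all 79 dorsal cells. Its blocks overlapped, at 495 to 1382 CPM in ventral and 892 to 2282 CPM in dorsal cells. Nfia stood at 276 CPM in ventral and 241 CPM in dorsal cells, and Nfib at 123 CPM in ventral and 80.1 CPM in dorsal cells. Values for Nfic were 113 CPM in ventral and 109 CPM in dorsal cells, and those for Nfix 108 CPM in ventral and 180 CPM in dorsal cells. Sox2 stood at 51.3 CPM in ventral and 36.6 CPM in dorsal cells, Sox5 at 36.0 CPM in ventral and 32.3 CPM in dorsal cells, and Sox6 at 16.6 CPM in ventral and 27.9 CPM in dorsal cells. Under 20 CPM were Sox4, Sox8, Sox21 and Sox3, and Sox10 had 0 reads in both classes.

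Of 11 Notch pathway and radial glia genes at 20 CPM, 7 lay within 2-fold, 3 were 2- to 4-fold and 1 was at least 4-fold higher in dorsal cells. The list's median log2 ratio was -0.74, and -0.01 without the Sspo-high cells. Gfap, an intermediate filament of astrocytes, was read at 10.2 CPM in ventral and 80.2 CPM in dorsal cells, in 6 ventral and 17 dorsal cells at 10 CPM. Vim, the filament vimentin, was read in every cell, at 885 CPM in ventral and 1556 CPM in dorsal cells. Notch2, a receptor, was at 19.2 CPM in ventral and 74.7 CPM in dorsal cells, and Hes1, a target of Notch, at 64.7 and 130 CPM in ventral and dorsal cells.

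Immediate early genes, which respond within minutes to stimulation or tissue handling, were higher in dorsal cells. Of 18 at 20 CPM, 8 were at least 4-fold and 7 were 2- to 4-fold higher in dorsal cells, and 3 lay within 2-fold. The whole list summed to 2732 CPM in ventral and 12206 CPM in dorsal cells. The dorsal sum was higher in 6 of 7 blocks, and the remaining block had 7183 CPM in ventral and 6371 CPM in dorsal cells. Fos stood at 1218 CPM in ventral and 4092 CPM in dorsal cells, and reached 1000 CPM in 11 of 56 ventral cells (19.6%) and 40 of 79 dorsal cells (50.6%). Egr1 stood at 261 CPM in ventral and 1797 CPM in dorsal cells, and Ier2 at 13.7 and 672 CPM in ventral and dorsal cells. Without cells at 1000 CPM of Fos, which left 45 ventral and 39 dorsal cells, all 30 genes of the 2 groups of 15 kept their direction and a 4-fold difference. Those 30 genes had been chosen for large folds in these same cells. The part of stimulation in the named genes and in the gene lists was not tested.

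Within a class, genes of the same direction were read together in some cells and apart in others. Of the 32 ventral cells at 10 CPM of Cd36, 17 also had Cnpy1, 15 Timp4, 28 Gpld1, 9 Slc26a3 and 9 Ntn1. In dorsal cells, Pax6 (36 cells) and Pax3 (20 cells) were read together in 11 cells, and Efhd1 (43 cells) and Pax3 in 6. Epha7 (33 cells) and Pax6 shared 21 cells. Fixed to a depth of 100000 reads per cell, Cd36 was read in 57.1% of ventral and 0% of dorsal cells, and Efhd1 in 3.57% and 54.4% of ventral and dorsal cells. At full depth the shares with any read were 57.1% and 1.27% for Cd36, and 7.14% and 54.4% for Efhd1, in ventral and dorsal cells.

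Some of the 144 cells with 0 reads of Nkx6.1 and Zic4 held genes of the ventral or dorsal direction. For these cells, 2 sets of genes were chosen after their values were seen. The ventral set was Cd36, Ntn1, Dbx2, Foxa1 and Nkx2.2, and the dorsal set Pax3 and Pax6. A gene of the ventral set reached 10 CPM in 39 of 56 ventral cells and 1 of 79 dorsal cells, and a gene of the dorsal set in 0 ventral and 45 dorsal cells. As the sets were chosen from these same classes, the counts only describe that choice. The sets hold 5 and 2 genes, so their shares cannot be set against each other. Among the 144 cells, 42 had at least 1 gene of the ventral set at 10 CPM (29.2%, 21.9 to 37.3). At least 1 gene of the dorsal set was at that level in 28 (19.4%, 13.3 to 26.9), with 2 cells in both counts and 76 in neither. Timp4 stood at 216 CPM in the 144 cells, above its 184.5 CPM in ventral cells. Nkd2 stood at 36.4 CPM and Rbfox1 at 21.1 CPM in the 144 cells, near their 37.3 and 21.2 CPM in ventral cells. Lower than in ventral cells were Cnpy1, at 54.3 CPM against 99.7 CPM, and Cd36, at 91.8 CPM against 429.5 CPM.

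The rule was then applied to the other samples, whose cells had no part in choosing the midbrain genes. The files name the third and lateral ventricle cells as tanycytes and forebrain, and they were assigned by anatomy. In the third ventricle the rule found 9 ventral and 27 dorsal cells among 240 Ccdc153-high cells. In the lateral ventricle it found 0 ventral and 161 dorsal among 239, in the spinal cord 66 ventral and 1 dorsal among 99, and in the Nkx2-2 line 3 ventral and 1 dorsal among 19. A comparison inside a sample with at least 5 cells in each class was therefore possible only in the third ventricle. There, 6.03% of 8244 genes at 20 CPM were at least 4-fold higher in ventral and 7.28% in dorsal cells.

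Of the 15 ventral midbrain genes, 9 had the same direction in the third ventricle, 6 of them at least 4-fold, and 6 had the other direction. Only 9 of the 15 reached 20 CPM there in either class, and 7 of those 9 had the same direction. Of all genes at 20 CPM there, 52.8% were higher in ventral cells. The difference was not tested. Cd36 stood at 46.1 CPM in ventral and 0.0444 CPM in dorsal cells of the third ventricle, but in 2 of the 9 ventral cells. Ntn1, at 2.63 CPM in ventral cells there, and Cnpy1, at 46.6 CPM, were also among the 6. Each of these 2 was read in only 1 of the 9 ventral cells. Timp4 stood at 520 CPM in ventral and 75.9 CPM in dorsal cells, Gpld1 at 773 and 222 CPM, and Slc6a6 at 111 and 19.2 CPM. Rbfox1 stood at 45.2 CPM in ventral and 2.57 CPM in dorsal cells. Meox1 had 0 reads in ventral and 14.5 CPM in dorsal cells there, the opposite of the midbrain. Of the 15 dorsal midbrain genes, 9 gave a ratio and all 9 had the same direction, 3 of them at least 4-fold. Without Zic1 these numbers were 8, 8 and 2, and 4 of the 8 reached 20 CPM there. Of all genes at 20 CPM there, 7.28% were at least 4-fold higher in dorsal cells. Slc29a4 had 1 read in ventral and 5 reads in dorsal cells, and Thrsp had its 35 reads in 1 dorsal cell. Uba7 (log2 -0.12) and Camkv (-0.65) lay within 2-fold, and Bmpr1b was read in 1 ventral and 3 dorsal cells. Efhd1 stood at 12.3 CPM in ventral and 30.5 CPM in dorsal cells of the third ventricle. Mab21l2, Igfbp6, Wfdc2 and Kcnj13 had 0 reads in both classes there, and Pax3 and Spp2 had 1 read each. Of the ventral patterning genes above, Dbx2 (log2 -3.58, 0 reads in ventral cells), Nkx2.2 (-0.33) and Ptch1 (-0.50) were higher in dorsal cells there. Nkx6.2 (5.53, in 1 ventral cell), Boc (0.46) and Smo (0.02) were higher in ventral cells, and Foxa1 had 0 reads. Of the dorsal ones, Pax6 (-0.84) and Msx1 (-0.13) lay within 2-fold, and Zic5 (-3.67), Gdf10 (-7.42) and Bmp6 (-2.66) were higher in dorsal cells. Rspo3 had 0 reads there and Wnt3 had 3.

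**Figure D5:**
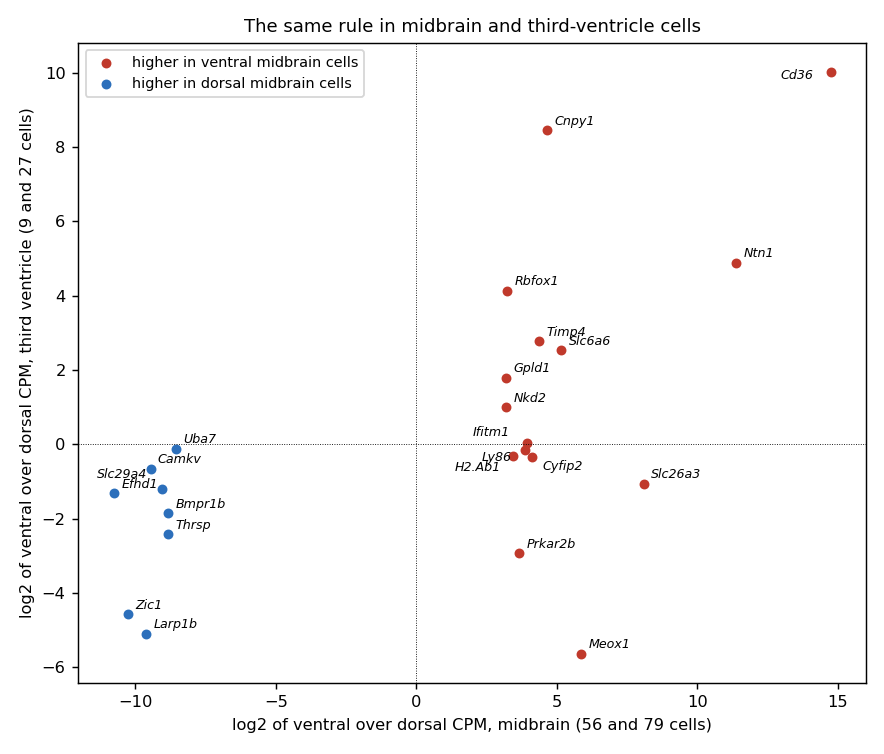
Log2 of ventral over dorsal CPM in the midbrain (horizontal axis, 56 and 79 cells) and in the third ventricle (vertical axis, 9 and 27 cells) for 23 genes of the 2 groups of 15 that gave a ratio in both; each point is a gene, and a class at 0 reads takes a floor of 3 reads. Red genes were higher in ventral and blue genes in dorsal midbrain cells. All 8 blue genes drawn, Zic1 with its overlap of Zic4 among them, lie below 0 on the vertical axis, and 9 of the 15 red genes lie above it.

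Ventral-rule cells of the spinal cord and dorsal-rule cells of the lateral ventricle differ in region as well as class, so their values are given side by side. Of the 15 ventral midbrain genes, 8 were higher in the spinal cord cells than in the lateral ventricle cells and 7 were lower. Nkd2 stood at 0.101 CPM in the spinal cord and 35.1 CPM in the lateral ventricle, and Ly86 at 0.0336 and 16.6 CPM. Cd36 stood at 18.7 CPM in the spinal cord cells and 0.0992 CPM in the lateral ventricle cells. Slc26a3 stood at 260 CPM in the spinal cord and 35.9 CPM in the lateral ventricle, Timp4 at 173 and 15.8 CPM, and Rbfox1 at 176 and 0.314 CPM. Larp1b stood at 0 CPM in the spinal cord and 68.0 CPM in the lateral ventricle. Pax6 stood at 112 CPM in the spinal cord and 31.3 CPM in the lateral ventricle, so it was high in ventral-rule cells there. Pax3 had 1 read or 0 reads in each.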

How the data were processed

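Sorted single cells were read by Smart-seq2, with no molecular identifiers. The raw table holds counts of reads per gene and cell as deposited, for 16347 genes. Per the submitters' processing notes, STAR 2.3.1o and Seurat 3 were used with genome mm10. A second deposited table holds log2 values, which equalled log2(count / size factor + 1) for 100% of entries within 0.01. It served as an alternative only.

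Each class was taken as the sum of the counts of its cells, divided by its total reads to give CPM, with exact Poisson intervals; shares of cells have Clopper-Pearson intervals. A class with 0 reads took a floor of 3 reads. Genes were called at 20 CPM and 20% of cells in the higher class and 4-fold. The 15 named per direction were the largest folds that kept 4-fold without the top cell of each class and kept direction in both sequencing projects; wells 1 to 480 by order were taken as the first. Rule genes, Xist and Y-linked genes were left out. A gene of the dorsal 15 and a few list members are not reported here. Members and lists were chosen with earlier results of these data known. Gene positions came from GENCODE vM21, which matched 15504 names. The calls were also run on simulated data, and the outcome is not given here. Python 3.11.15, numpy 2.4.6, pandas 2.3.3, scipy 1.17.1 and matplotlib 3.10.9 were used. With 1 sample per group, no test between groups was made.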

Additional observations from a re-analysis of the deposited data

Results flagged for a closer look

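The log2 ratio of ventral over dorsal cells had opposite signs in the third ventricle and the midbrain for 6 of the 15 genes named as ventral, and the difference was not tested. For 3 of them, Cyfip2 (-0.35 in the third ventricle), Ly86 (-0.15) and H2.Ab1 (-0.31), the value there was near 0. For Slc26a3 it was -1.06 in the third ventricle and 8.10 in the midbrain. Meox1 gave -5.63 in the third ventricle, where ventral cells had 0 reads and the value rests on a floor of 3 reads, and 5.87 in the midbrain. Prkar2b gave -2.92 in the third ventricle, again against 0 reads in ventral cells, and 3.65 in the midbrain. The third ventricle held 9 ventral and 27 dorsal cells.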

How the results depend on the processing

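The number of genes at least 4-fold higher in ventral cells (67) and the number of genes at least 4-fold higher in dorsal cells (155) were recomputed under each alternative. A minimum of 1 read of the rule genes gave 40 ventral genes, and a Ccdc153 minimum of 500 CPM gave 289 dorsal genes. Without cells at 1000 CPM of Sspo there were 101 dorsal genes, 89 of them among the 155. The second sequencing project alone gave 376 ventral and 825 dorsal genes from 12 and 21 cells, cells with Xist 381 and 676 from 15 and 28, and cells with Y-linked reads 431 and 371 from 18 and 26. Without cells at 1000 CPM of Fos, an alternative chosen after seeing the data, there were 167 ventral genes. With no minimum level the counts were 890 ventral and 1846 dorsal, and at 2-fold 458 and 611. Leaving out each block of wells in turn gave 81 to 94 ventral and 164 to 195 dorsal genes.

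Of 345 values of the 15 named genes per direction over 23 settings, 344 kept their direction in each class. The exceptions were Ly86 in cells with Xist (log2 -0.093) and Wfdc2 without cells at 100 CPM of Sspo (0.71), a minimum also chosen after seeing the data. Values under 4-fold that kept their direction were Slc6a6 at 1.89 in cells with Xist, Timp4 at 0.87 and Rbfox1 at 1.15 with the minimum of 1 read, Rbfox1 at 1.75 with the lower Ccdc153 minimum, Nkd2 at 1.40 and Bmpr1b at -0.55 in the second project, and Igfbp6 at -1.10 and Spp2 at -0.32 without cells at 100 CPM of Sspo. Among other genes followed, Pdyn reversed in the second project (-2.84), in cells with Xist (-3.21) and without Fos-high cells (-4.37), and Calb1 in the second project (-0.30). Without cells at 1000 CPM of Sspo, Sspo was at 0.27, Rbp4 at 1.46 and Pnmal1 at 4.18. Without cells at 100 CPM of Sspo, Sspo was at 0.021, Rbp4 at 2.305, Spdef at 3.31, Pnmal1 at 5.05, Cldn3 at 0.71, Drd1 at 2.44 and Npsr1 at 1.22. Pnmal1 was at 0.22 with the higher of the alternative Ccdc153 minimums. The cause was not tested. Depth limits a class at 0 reads to a level of up to 0.0574 CPM in ventral and 0.0469 CPM in dorsal cells. No paired analysis was possible because each group is 1 sample and both classes lie in the same sample.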
